A study of Mus musculus with 4 samples.

Results

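The primitive streak and mesoderm markers examined here are 10 genes: T, Mixl1, Eomes, Gsc, Evx1, Mesp1, Tbx6, Kdr, Pdgfra and Lmo2. A probe set, a group of short probes read as 1 signal, was taken as a member when the platform annotation gave exactly one of these symbols and no other. This gave 12 probe sets for 9 of the 10 genes, out of 45037 probe sets other than controls, which name 18193 genes. No probe set used here carried the symbol T, so T was not analysed here. The RNA came from E14Tg2A.4 cells, a feeder-independent mouse embryonic stem cell line derived from E14Tg2a, which lacks Hprt. Cells of 2 arrays had been given bone morphogenetic protein 2 (BMP-2), a secreted signalling protein, at 25 ng/ml for 1 h, and cells of the other 2 arrays had been left untreated. All 4 arrays share the cell line. Whether the 2 arrays of a group hold separate cultures is not in the labels, so each p-value covers the spread of these arrays alone, which may be only technical.

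The primitive streak is the furrow of the gastrulating embryo through which epiblast cells leave to form mesoderm and endoderm. BMP4 from the extraembryonic ectoderm induces Wnt3 in the epiblast, and WNT and Nodal signals then switch on T-box and homeobox genes, after which Mesp1, Tbx6, Kdr, Pdgfra and Lmo2 mark mesoderm as it forms and divides into its lineages. Embryonic stem cells kept in the pluripotent state hold most of these genes low, and they switch them on over days when directed towards mesoderm. The direct targets of BMP, such as the Id genes, respond within the first hour through SMAD1, SMAD5 and SMAD4.

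Promoter sequences are given for Mesp1 and Evx1, and for Id2 and Id3, which rose with BMP-2 on the same arrays. Mesp1, Evx1 and, on its brighter probe set, Eomes are transcription factor genes whose treated signals both lay above the untreated ones. The Eomes window is not printed and held 0 matches to the 4 motifs below. The printed sequences are RefSeq windows of 300 bases, from 250 before to 50 after the annotated start. They are written 5' to 3' on the gene's strand in build GRCm38.p6. The table held such a window for 8 of the 10 genes, and not for Mixl1 and Lmo2. Capitals mark matches on either strand to 4 short motifs: GGCGCC, a GC-rich SMAD element, CAGAC, a SMAD box, TCACACC, the core bound by T-box factors, and CTTTGA, a core of TCF/LEF sites. No match overlaps another in these windows. The Mesp1 window lies at chr7:79793541-79793840 on the minus strand, Evx1 at chr6:52313248-52313547 on the plus strand, Id2 at chr12:25096043-25096342 on the minus strand and Id3 at chr4:136143572-136143871 on the plus strand.
Mesp1: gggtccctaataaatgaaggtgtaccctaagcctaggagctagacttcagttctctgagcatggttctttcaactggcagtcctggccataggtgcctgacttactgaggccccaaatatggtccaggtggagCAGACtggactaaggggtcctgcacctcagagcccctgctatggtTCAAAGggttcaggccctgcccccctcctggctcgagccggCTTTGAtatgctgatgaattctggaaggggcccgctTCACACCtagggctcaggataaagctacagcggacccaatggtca
Evx1: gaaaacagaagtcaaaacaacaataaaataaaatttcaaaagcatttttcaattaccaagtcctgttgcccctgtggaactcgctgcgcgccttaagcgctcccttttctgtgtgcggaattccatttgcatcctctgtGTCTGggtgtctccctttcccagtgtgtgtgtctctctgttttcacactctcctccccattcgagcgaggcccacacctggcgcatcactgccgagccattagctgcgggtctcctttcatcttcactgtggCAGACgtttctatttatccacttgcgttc
Id2: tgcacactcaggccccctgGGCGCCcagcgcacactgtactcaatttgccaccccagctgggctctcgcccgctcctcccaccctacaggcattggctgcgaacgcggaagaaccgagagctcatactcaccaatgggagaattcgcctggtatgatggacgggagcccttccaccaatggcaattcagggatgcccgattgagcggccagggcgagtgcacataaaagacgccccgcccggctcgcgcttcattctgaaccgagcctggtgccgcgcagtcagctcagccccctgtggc
Id3: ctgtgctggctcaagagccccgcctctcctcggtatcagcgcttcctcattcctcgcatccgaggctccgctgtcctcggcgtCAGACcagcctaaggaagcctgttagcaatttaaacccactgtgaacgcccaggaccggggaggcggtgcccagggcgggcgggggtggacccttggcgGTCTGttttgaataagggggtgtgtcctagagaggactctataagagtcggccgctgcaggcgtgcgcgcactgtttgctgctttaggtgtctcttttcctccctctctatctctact
The Mesp1 window held 1 CAGAC box, 2 CTTTGA cores and 1 TCACACC core, which began 5 bases after the start. It was the only one of the 8 member windows with TCACACC, which 3.98% of 32851 windows of that length hold. CTTTGA was found in Mesp1 and T and in 16% of all windows, and CAGAC in Evx1, Mesp1, Tbx6 and Pdgfra and in 49.6%. GGCGCC was in 0 of the 8 member windows and in 11.9% of all windows. Of the 3 early BMP target windows kept, Id2 holds 1 match to GGCGCC and Id3 and Smad6 hold 0. CAGAC is found 2 times in Id3 and 0 times in Id2 and Smad6. Id1 and Smad7 have no window among those kept, and windows of the chromosome that holds Smad7 were left out. A match is a description of letters and not of binding.

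Signals are linear MAS5 values, scaled within each array, and were compared as log2. The median signal over all probe sets went with the replicate number, at 81.8 treated and 82.5 untreated for number 1 and 94.9 and 94.6 for number 2, and precision is limited by there being 4 arrays. Control probe sets for 18S ribosomal RNA on untreated replicate 2 read 3.94 to 6.11 times the highest signal on any other array, and the ratio of 3' to 5' signal was 1.06 times the highest of the others for Actb and 0.999 times for Gapdh. Of the 10 embryonic stem cell markers listed, among them Pou5f1, Nanog and Sox2, all 10 were bright enough to be tested, 0 passed, and their summed signal was 92350 treated and 92376 untreated for number 1 and 87740 and 87446 for number 2. Of 10 fibroblast or feeder markers 6 lay below the signal limit for testing (Col1a1, Col3a1, Pdgfrb, Postn, Dcn and Lum) and 4 lay above it on every array (Acta2 at 797 to 989, Fbln1 at 814 to 915, Thy1 at 210 to 239 and Col1a2 at 161 to 207). Of 10 blood and endothelial markers 3 lay below it (Ptprc, Hbb-bh1 and Hba-a1) and 7 were tested (Cd34, Pecam1, Cdh5, Tek, Tal1, Gata1 and Klf1), with Pecam1 at 265 to 357 and Tek at 275 to 314. In bulk RNA a change in the number of cells that express a gene and a change in RNA per cell cannot be told apart.

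After 1 h of BMP-2 none of the streak and mesoderm markers passed the test, while Id1, Id2 and Id3 did. Of the 5 early BMP targets listed, these 3 passed. Smad6 (1.27 log2, limma adjusted p = 0.0620) and Smad7 (0.66 log2, limma adjusted p = 0.0635) did not, though their groups did not overlap. Missing the threshold is therefore not evidence that a gene did not respond. By limma 0 of 8 tested member probe sets had an adjusted p under 0.05, and 0.0185% of all 27022 tested probe sets did. At an unadjusted p under 0.05 there was 1 member probe set, that of Lmo2, where 3.07% of the tested probe sets lay. A probe set was tested when its mean log2 signal lay above the 40th percentile, a signal of 53.0, and 4 of the 12 member probe sets, those of Gsc and Pdgfra, did not reach it. Treated means were above untreated means for 11 of the 12 probe sets, against 49.3% of all probe sets, and the exception was Kdr. The median difference was 0.36 log2 over the 12 and -0.0032 log2 over all probe sets. These members were chosen with earlier results of these arrays known, and dim probe sets differ more by noise alone than bright ones do. Each difference is therefore set against a yardstick: the SD of the log2 difference between 2 arrays of the same group, over the 1000 probe sets nearest in mean signal, divided by the square root of 2. Differences larger than 1 yardstick were found for 5 of the 12 (25.4% of all probe sets) and larger than 2 yardsticks for 1, Lmo2 (4.65% of all probe sets).

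**Figure D1:**
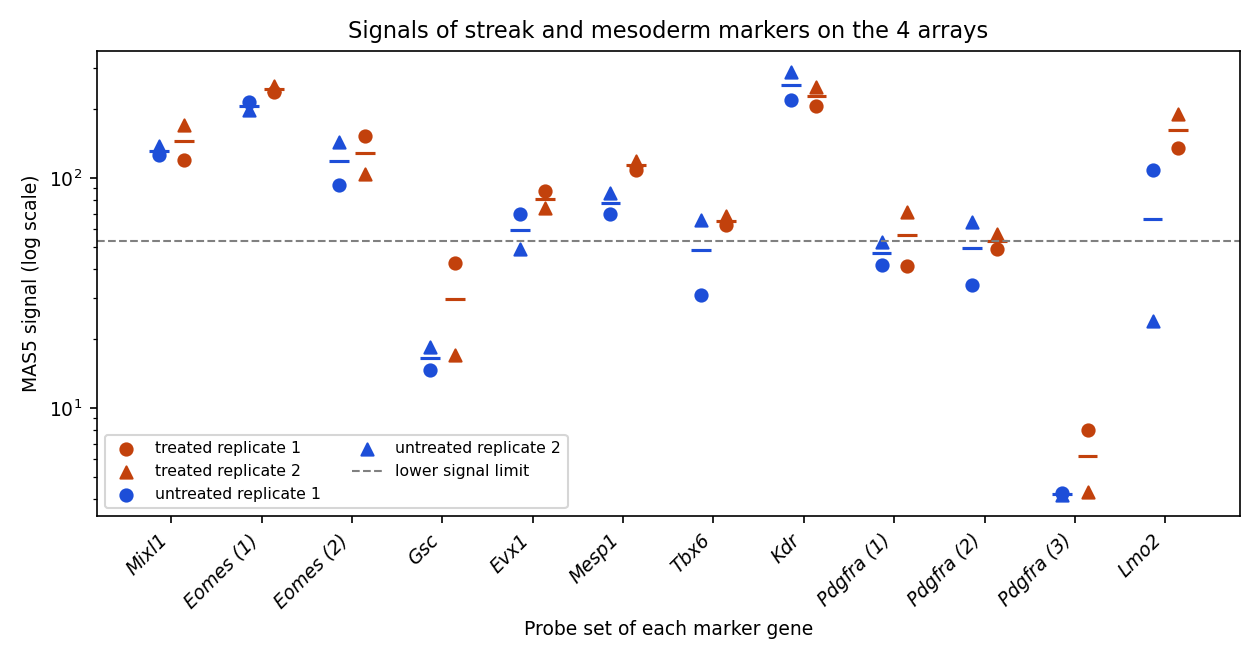
MAS5 signal (log scale) of the 12 probe sets on each array, with circles for replicate 1, triangles for replicate 2, short lines for group means and a dashed line at the signal limit of 53.0. Probe sets of a gene are numbered from the brightest. Treated and untreated signals overlap for 7 of the 12, and the low untreated replicate 2 signal of Lmo2, 23.9, stands apart from its other 3.

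Among the T-box factors, Eomes, which starts the gene programme of the anterior streak and of cardiac mesoderm and is also needed in trophoblast, was read by 2 probe sets. The brighter, 1435172_at, read 237 and 251 on the treated arrays and 213 and 198 on the untreated. Both treated signals lay above both untreated ones, by a mean difference of 0.25 log2 ± 0.18 (SE), or 1.10 yardsticks (limma adjusted p = 1.00). The dimmer probe set, 1426001_at, read 152 and 104 with BMP-2 and 93.1 and 143 without. Here the groups crossed. Treated replicate 1 lay 0.71 log2 above untreated replicate 1 and treated replicate 2 lay 0.47 log2 below untreated replicate 2, a mean of 0.12 log2 (limma adjusted p = 1.00). The sign of the dimmer probe set turned when treated replicate 1 was left out (-0.16) and when untreated replicate 1 was (-0.19). The Eomes difference is thus in the same direction on both probe sets but larger than 1 yardstick on 1 of them.

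Tbx6, the T-box factor that sets paraxial mesoderm apart from neural fate, read 62.4 and 68.0 on the treated arrays and 31.1 and 65.7 on the untreated. Only untreated replicate 1 was low, below the signal limit, and untreated replicate 2 lay between the treated signals. The difference was 0.53 log2 ± 0.46 (SE), or 1.09 yardsticks (limma adjusted p = 1.00). Without untreated replicate 1 it was -0.01 log2, so the direction rests on that array.

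Of the homeobox genes, Mixl1, a factor of the streak that is needed for axial mesoderm and definitive endoderm, read 119 and 170 with BMP-2 and 126 and 137 without. The 2 treated signals enclosed the untreated ones. The difference, 0.12 log2 ± 0.25 (SE), was 0.43 yardsticks (limma adjusted p = 1.00), and it was -0.14 without treated replicate 2. Evx1, a marker of the posterior streak, read 87.4 and 74.3 on the treated arrays and 69.3 and 49.1 on the untreated, with untreated replicate 2 below the signal limit. The groups did not overlap, but the treated replicate 2 signal exceeded untreated replicate 1 by little. The Evx1 difference was 0.47 log2 ± 0.36 (SE) or 1.14 yardsticks (limma adjusted p = 1.00), close to the 0.50 log2 between its 2 untreated arrays, and it was 0.22 without untreated replicate 2 and 0.72 without untreated replicate 1. Gsc, which encodes the goosecoid factor of the anterior streak and the organizer, was below the signal limit on all 4 arrays. It read 42.7 and 17.0 with BMP-2 and 14.6 and 18.4 without. Treated replicate 1 alone was high, and treated replicate 2 lay between the untreated signals, so no fold is given.

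Mesp1, the basic helix-loop-helix factor that marks the first mesoderm to leave the streak, including heart progenitors, and whose promoter window is shown above, read 108 and 119 on the treated arrays. On the untreated arrays it read 69.7 and 86.3. Both treated signals lay above both untreated ones, and the gap held within each replicate number, at 0.64 and 0.46 log2. The mean treated signal was 114 ± 7.45 (SD, n = 2) against 78.0 ± 11.8 (SD, n = 2), a 1.46-fold difference with a 95% interval of 0.938 to 2.28. The log2 difference of 0.55 ± 0.29 (SE) was 1.66 yardsticks, the second largest of the set, and did not pass (limma unadjusted p = 0.0852, adjusted p = 1.00). Leaving out any 1 array gave 0.39 to 0.70 log2.

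The 2 receptor genes showed no difference beyond the spread of the arrays. Kdr encodes the VEGF receptor of blood and vessel progenitors. It read 206 and 249 with BMP-2 and 217 and 289 without, and each treated array lay below the untreated array of its own number. The difference was -0.14 log2 ± 0.20 (SE), or -0.65 yardsticks (limma adjusted p = 1.00), and it was 0.06 without untreated replicate 2. Pdgfra encodes a PDGF receptor of early mesoderm that primitive endoderm and fibroblasts also express, and all 3 of its probe sets had a mean below the signal limit. Probe set 1421916_at read 41.5 and 70.9 with BMP-2 and 41.8 and 52.4 without. Probe set 1438946_at read 49.3 and 56.9 with BMP-2 and 34.4 and 64.4 without, and the third, 1421917_at, had a highest signal of 8.03. The differences were 0.42, 0.34 and 0.45 yardsticks, and only the dimmest had no overlap between the groups. Primitive endoderm markers were bright enough for testing in 9 of 10 genes, with a summed signal of 1972 and 1976 on the treated arrays and 1737 and 1835 on the untreated. Of the 9 tested, 8 were higher with BMP-2, against 52.2% of all tested probe sets, and 0 passed. Sox7, a SOX factor of that lineage, read 111 and 135 with BMP-2 and 63.5 and 50.9 without, 1.11 log2 or 3.09 yardsticks (limma unadjusted p = 0.0052, adjusted p = 1.00). Fibroblast markers summed to 2174 and 2483 against 2265 and 2412. Of 10 trophectoderm markers 7 were tested, of which 1 was higher with BMP-2 and 6 lower, and 0 passed. The part of any of these cell types in the Pdgfra signals, or in those of the other members, was not tested.

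Lmo2 gave the largest difference and the largest scatter. It encodes a LIM-only bridging protein that joins TAL1, GATA and LDB1 proteins into a complex needed for blood and vessel development. The probe set, 1454086_a_at, read 135 and 189 on the treated arrays and 109 and 23.9 on the untreated. Both treated signals were above both untreated ones, but the 2 untreated arrays lay 2.18 log2 apart, further than the groups did. The treated mean was 162 ± 38.8 (SD, n = 2). The untreated mean was 66.2 ± 59.8 (SD, n = 2). The difference of 1.65 log2 ± 0.58 (SE) was 4.98 yardsticks, with an interval of 0.37 to 2.93 log2 (limma unadjusted p = 0.0169, adjusted p = 1.00). Between arrays of replicate number 1 the difference was 0.31 log2, and between those of number 2 it was 2.98 log2. The yardstick, 0.33 log2 here, is scaled for a difference of 2-array means and not of 2 single arrays. It was taken at the mean signal of Lmo2, but the untreated replicate 2 signal lay below the signal limit. Yardsticks were larger at dim signals, such as 0.83 log2 for Hand2 at a mean log2 signal of 4.53. The 4.98 yardsticks therefore do not allow for the spread at the signal of that array. Without untreated replicate 2, the array with the high 18S signal, the Lmo2 difference was 0.56 log2, and without untreated replicate 1 it was 2.74. Lmo2 passed in 3 of 11 alternative settings (limma adjusted p 4.7e-05 to 1.00): after centring each array on its median over all probe sets, and when replicate 1 of the treated or of the untreated arrays was left out. In the first and second of these limma gave a probe set's own spread no weight, and centring on the median of the tested probe sets gave an adjusted p of 0.913.

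**Figure D2:**
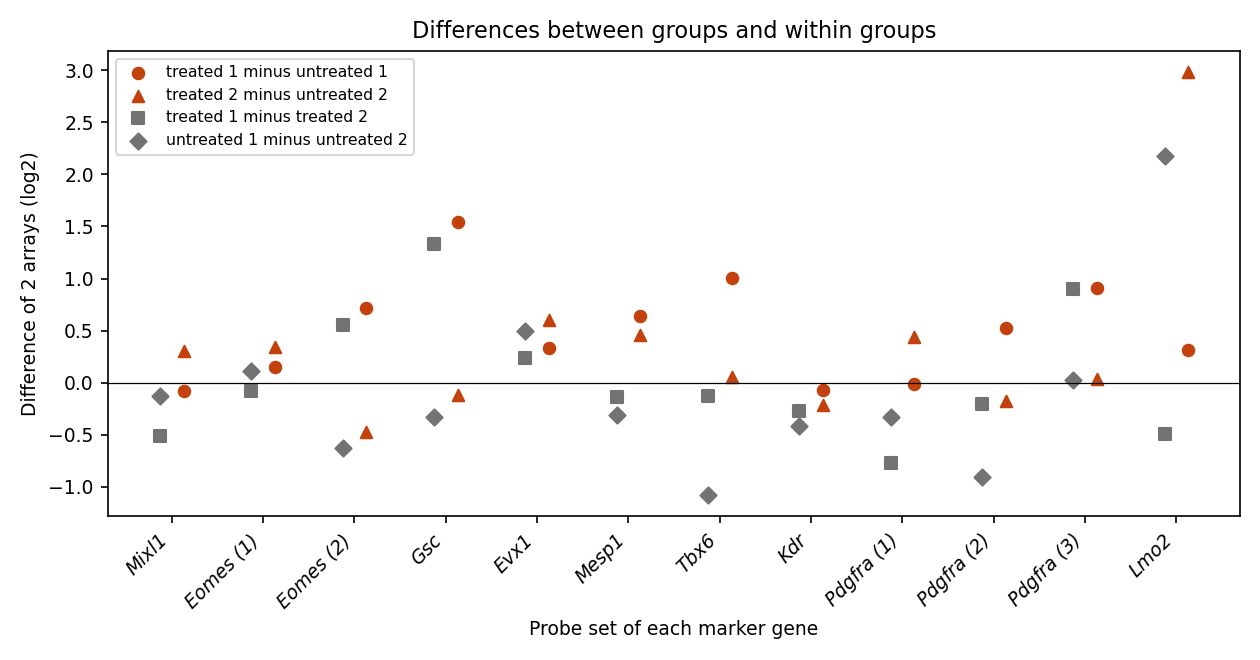
Log2 differences between 2 arrays for the 12 probe sets, with orange points for treated minus untreated arrays of equal replicate number and grey points for the 2 arrays of a group. Both orange points lie above 0 for 6 of the 12 probe sets, and for Lmo2 the difference within the untreated group, 2.18, exceeds the treated minus untreated difference of replicate 1, 0.31.

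The 3 tested probe sets with a single gene whose log2 signals followed Lmo2 most closely over the 4 arrays, by Euclidean distance after centring each probe set, were those of Tafa5 (distance 0.19, Pearson r = 0.998), Alppl2 (0.26, r = 0.998) and Asic2 (0.35, r = 0.988). All 3 share the low untreated replicate 2 signal, between 16.6 and 18.9, and the likeness is over 4 arrays only. The genes that encode the partners of LMO2 were measured on the same arrays. Ldb1 read 1991 and 1764 with BMP-2 and 1726 and 1863 without, and Tal1 read 86.5 and 87.4 against 85.6 and 49.2. Gata1 and Gata2 differed by 0.12 and 0.22 log2, and none of these 4 passed (limma adjusted p = 1.00 each).

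The groups were apart, with no overlap, for 5 of the 12 probe sets, all 5 higher with BMP-2, where 29.4% of all probe sets did not overlap and 14.7% were higher without overlap. These were the brighter Eomes probe set, Evx1, Mesp1, Lmo2 and the dimmest Pdgfra probe set. In 6 of the 12 the treated array was higher at both replicate numbers, against 25.0% of all probe sets. Untreated replicate 1 was the lowest array for 5 of the 12 and untreated replicate 2 for 4, and untreated replicate 1 was the highest for 0.

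The 95% intervals bound the difference of each tested probe set, given the spread of these arrays alone, as for the p-values. On the same arrays Id1, which encodes a helix-loop-helix inhibitor, read 9738 and 9495 with BMP-2 against 3129 and 3007, a difference of 1.65 log2 or 18.1 yardsticks. For 7 of the 8 tested member probe sets the upper 95% limit of the difference lay below the Id1 difference, the exception being Lmo2, and for 4 it lay below 1 log2, a doubling. The upper limits were 0.65 log2 for the brighter and 0.80 for the dimmer Eomes probe set, 0.68 for Mixl1 and 0.31 for Kdr. They were 1.19 log2 for Mesp1, 1.26 for Evx1 and 1.55 for Tbx6. A doubling of these 3 genes thus lies within their intervals, and for Gsc and Pdgfra no interval was fitted. Smad7, another early BMP target, differed by less than Id1, 0.66 log2. The upper limits of Mixl1, the dimmer Eomes probe set, Mesp1, Evx1, Tbx6 and Lmo2 lay above that value. Those of the brighter Eomes probe set and Kdr lay below it.

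**Figure D3:**
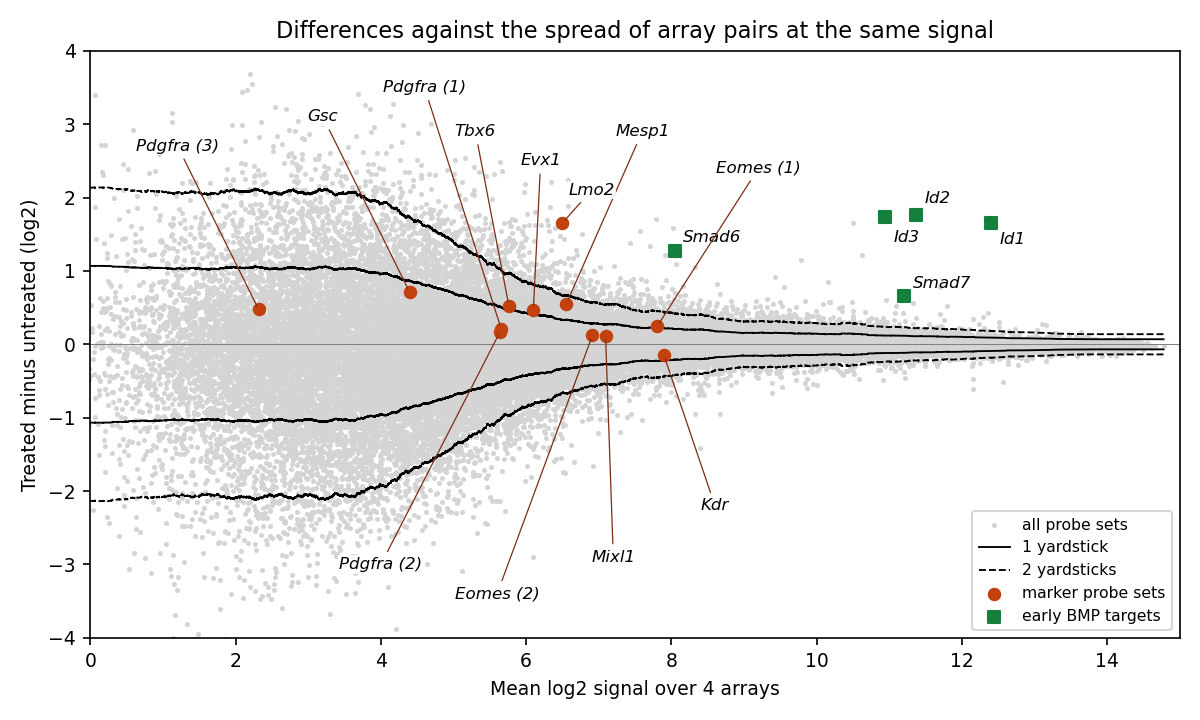
Treated minus untreated log2 difference against mean log2 signal for all probe sets (grey), the 12 marker probe sets (orange) and early BMP targets (green), with 1 yardstick (solid) and 2 yardsticks (dashed). Of the markers only Lmo2, at 4.98 yardsticks, lies beyond the dashed lines, and Id1 lies at 18.1.

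Other genes of the streak and of early mesoderm were followed as 5 lists with 62 genes, of which 61 had a probe set and 43 were tested on their brightest one. None of the 43 passed by limma in either direction, with 5 at an unadjusted p under 0.05 (3.07% of all tested probe sets). Of the 43, 26 were higher, where 52.2% of all tested probe sets were, and 17 lower, with a median of 0.05 log2, against 0.0076 log2 over all tested probe sets. Differences beyond 2 yardsticks were found for 4 of the 43 (4.02% of tested probe sets). Of the 6 tested genes listed as streak signals, 2 were higher, Fgf4 and Furin. Bmp4 read 892 and 832 against 1141 and 1091 (-0.37 log2, limma adjusted p = 1.00), and Nodal 5030 and 4850 against 5619 and 5614 (-0.19 log2, adjusted p = 1.00), both below the untreated arrays. Furin, the convertase that processes Nodal precursor, differed by 0.39 log2 and the groups did not overlap. Of 8 tested posterior streak and epithelial-mesenchymal transition factors 3 were higher, with Lef1 at 0.27 log2, Sp5 at -0.52 and Zeb2 at -0.35. Of 6 anterior streak factors 4 were higher, and Chrd, Foxh1 and Otx2 differed by -0.36, -0.15 and 0.09 log2.

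Among nascent and paraxial mesoderm genes 5 of 7 were higher. Dll1, a Notch ligand of presomitic mesoderm, read 503 and 559 with BMP-2 and 815 and 869 without, -0.67 log2 or -4.33 yardsticks (limma adjusted p = 0.433), and it passed in 1 alternative, without treated replicate 2. Mesp2, the gene next to Mesp1 in the genome and a somite segmentation factor, differed by 0.15 log2, and Tcf15 by 0.08. Among lateral, cardiac and blood mesoderm genes 12 of 16 were higher, again beside 52.2% of all tested probe sets, with a median of 0.09 log2. Tbx5, a T-box factor of heart and forelimb, read 130 and 183 with BMP-2 against 18.5 and 95.1 without. Its difference of 1.88 log2 ± 0.62 (SE) was 4.94 yardsticks (limma adjusted p = 1.00). Here the low array was untreated replicate 1, not untreated replicate 2 as for Lmo2. The Tbx5 signal on that array lay below the signal limit, while the yardstick was taken at the mean signal, as for Lmo2. Tbx5 passed in 3 alternatives: centring each array on its median, without treated replicate 1 and without untreated replicate 2. Nkx2-5 and Gata4, both cardiac factors, differed by 0.51 and 0.45 log2, or 1.74 and 1.42 yardsticks, and their groups overlapped. Neither the marker genes nor these lists were tested as sets.

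**Figure D4:**
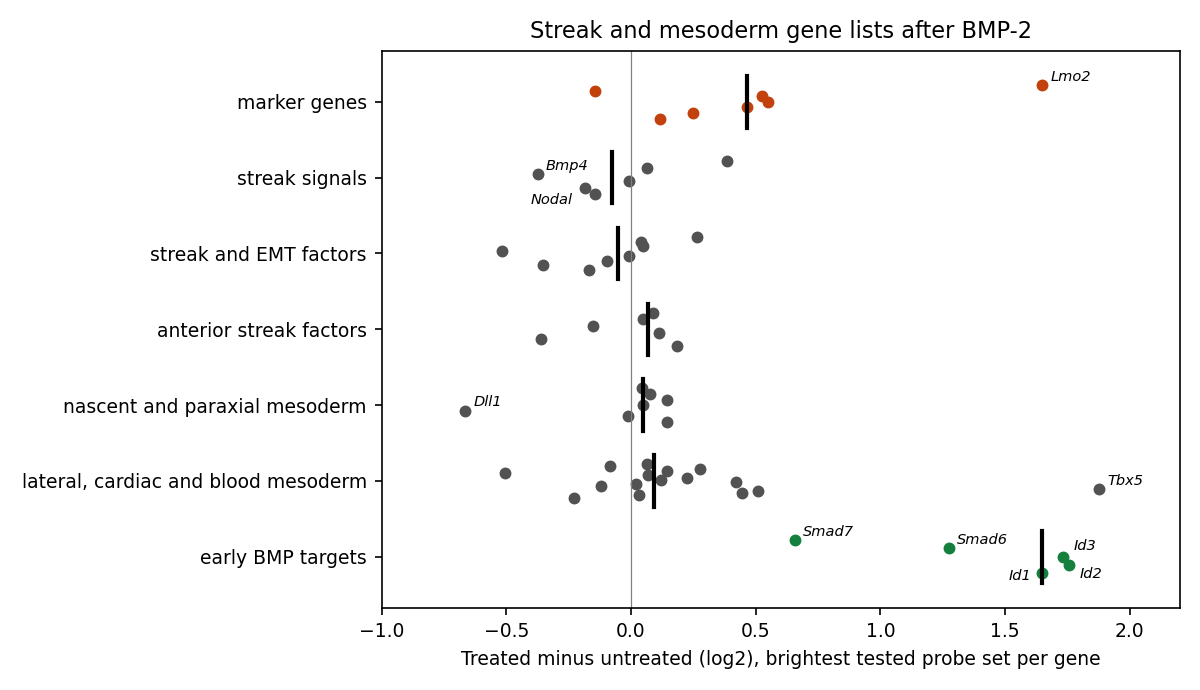
Treated minus untreated log2 difference of the brightest tested probe set of each gene, by list, with a black bar at the median of each list. Genes beyond 2 yardsticks are named. The medians of the 5 streak and mesoderm lists lie between -0.08 and 0.09, that of the 7 tested marker genes at 0.47 and that of 5 early BMP targets at 1.65.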

How the data were processed

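Transcript levels of 4 RNA samples were measured on 1-colour Affymetrix arrays, 2 treated and 2 untreated, grouped by their titles. The deposited intensity values, linear and 1 per probe set, were made by the authors with MAS5 (submitters' processing notes; no version is given in the sources used). The file holds no detection calls, so brightness stood in for detection. They were log2-transformed with no pseudocount and not normalized further, and 64 control probe sets were left out. Probe sets with a mean log2 signal above the 40th percentile, 5.73, were tested with limma 3.58.1 under R 4.3.3 (functions lmFit and eBayes, variance trend, two-sided, Benjamini-Hochberg over 27022 probe sets, 2 residual and 7.98 prior degrees of freedom, no replicate block), and the code was tested on simulated data. With 2 arrays a group no permutation of the labels can pass 0.05. The members and lists were chosen with earlier results of these data known. All member probe sets are named. Of other lists the text takes each gene's brightest probe set and names up to 3 tested genes by size in yardsticks, and for the member with the largest difference the 3 nearest profiles. Marker genes of other cell types, genes below the signal limit, Smad6, Smad7 and the LMO2 partner genes were named beyond that rule, after their values were seen. Alternatives were quantile normalization, 2 centrings, a pseudocount of 25.4, other filters, no variance trend, a replicate block, other yardsticks and leaving out each array. The values name no genome build, and coordinates are those of the RefSeq windows.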

Additional observations from a re-analysis of the deposited data

How the results depend on the processing

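The count of member probe sets past the threshold, 0, was 1 (Lmo2) after centring each array on its median over all probe sets and ran from 0 to 1 when an array was left out. Centring on the median of the tested probe sets, an alternative chosen after seeing the data, gave 0. The median difference of the tested member probe sets, 0.36 log2, was 0.052 with the filter at the 60th percentile, which left 2 of them, and ran from 0.18 (without untreated replicate 1) to 0.43 without 1 array. Of the other streak and mesoderm genes 1 passed after centring on the median over all probe sets (Tbx5), and 0 to 1 without 1 array. Over all probe sets the 5 calls, 5 higher and 0 lower, became 116 after that centring (72 higher, 44 lower), 17 after centring on the tested probe sets (12 higher, 5 lower), 8 with the stricter filter (8 higher, 0 lower) and 0 with no variance trend (1023 at an unadjusted p under 0.05), and 16 to 141 without 1 array. Without treated replicate 2 these were 35 higher and 106 lower, against 58 and 35 when treated replicate 1 was dropped, 27 and 11 when untreated replicate 1 was, and 14 and 2 when untreated replicate 2 was. Signs turned only without 1 array, among tested members for the dimmer Eomes probe set (-0.16 and -0.19 log2, range -0.19 to 0.43 without 1 array), Mixl1 (-0.14, range -0.14 to 0.37), Tbx6 (-0.012, range -0.012 to 1.07) and Kdr (0.062, range -0.35 to 0.062). With the replicate number as a block 11 probe sets passed (10 higher, 1 lower), and 0 members. Deviations of equally numbered arrays from their group means correlated at 0.15 across tested probe sets, and median signals and stem cell marker sums also went with the number. The labels do not say what the number marks, and 2 pairs are too few to take it as a pairing from the data. In the fits with centring over all probe sets and without a treated array, limma estimated infinite prior degrees of freedom, so a probe set's own spread had no weight. With 1 array left in a group, that array is assumed to vary like the others.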

Other observations

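Below the signal limit, and chosen after its values were seen, Wnt3, the WNT ligand that the epiblast needs to form a streak, read 45.9 and 70.2 on the treated arrays and 13.4 and 28.7 on the untreated, 2.27 yardsticks higher. The suffix of this probe set, x_at, marks probes that can also bind other transcripts. Both treated signals lay above both untreated ones, but at a mean signal where the yardstick is 0.67 log2. Of all probe sets 4.65% differed by more than 2 yardsticks. Listed streak and mesoderm genes below the limit differed in both directions, such as Meox1 at -1.90 and Cdx2 at 1.74 yardsticks. Wnt3a, also below the limit, differed by -0.02 log2.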
